A study of Mus musculus with 12 samples.

Results

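The genes described here are the adult haemoglobin genes Hba-a1, Hba-a2, Hbb-bs and Hbb-bt, the haem synthesis genes Alas1, Alas2 and Fech, and the red cell membrane gene Slc4a1. They were chosen by name, with earlier results of these data known, and they are 8 of 43346 annotated genes in the deposited tables. The question put to them was whether globin RNA in Purkinje cell libraries came with other red blood cell RNA or stood alone. Expression was measured by RNA-seq in 12 libraries, numbered 1 to 6 and 8 to 13 by the technical replicate numbers of the labels. All of them are equal splits of 1 homogenate, which was made from 13 excised Purkinje cells of a single male mouse aged 14 months (strain B6CASTF1/J, a Castaneus by C57Bl6 hybrid). Each library was made by a Smart-seq protocol from the amount of total RNA longer than 200 bases that 1 cell would give, with spike-in RNA added. There is 1 group, with no treated, control or second animal, so every p-value measures the technical spread between splits of the same pool.

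Haemoglobin is a tetramer of paired alpha and beta chains, each of which carries a haem group that binds oxygen. Haem is built from glycine and succinyl-CoA by a chain of enzymes that starts with 5-aminolevulinate synthase and ends with ferrochelatase, which inserts the iron. Alas1 encodes the form of the first enzyme used by cells in general and Alas2 the form of red cell precursors, Fech encodes ferrochelatase, and Slc4a1 encodes band 3, the chloride and bicarbonate exchanger of the red cell membrane. Red cell precursors make globin, Alas2 and Slc4a1 RNA together, and globin RNA has also been reported in some neurons.

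The alpha pair and the beta pair are each near-identical copies, and the sequences below show how little separates their reads. The coding sequences of Hba-a1 and Hba-a2, 429 bases each, differed by the single change C381T, and those of Hbb-bs and Hbb-bt, 444 bases each, by the single change C417T (first-named gene first, positions counted from 1 at the first base of the start codon). Each line gives the last 100 coding bases of the main transcript, 5′ to 3′, with the differing base in capitals, from GENCODE M21 transcripts on mm10. These stretches lie, in the order of the lines, at chr11:32284292-32284391 on the plus strand, chr11:32297109-32297208 on the plus strand, chr7:103826665-103826764 on the minus strand and chr7:103812656-103812755 on the minus strand, all within coding exons.
Hba-a1: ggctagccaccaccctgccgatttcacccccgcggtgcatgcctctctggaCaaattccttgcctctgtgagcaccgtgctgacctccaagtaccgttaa
Hba-a2: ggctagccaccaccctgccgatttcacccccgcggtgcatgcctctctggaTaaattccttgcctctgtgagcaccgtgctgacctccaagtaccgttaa
Hbb-bs: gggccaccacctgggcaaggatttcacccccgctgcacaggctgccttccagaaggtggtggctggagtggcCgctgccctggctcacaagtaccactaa
Hbb-bt: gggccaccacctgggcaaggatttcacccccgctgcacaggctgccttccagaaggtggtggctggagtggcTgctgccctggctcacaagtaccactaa

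Of the 600 windows of 100 bases in the main Hba-a1 transcript, 339 (56.5%) were also found letter for letter in Hba-a2, and the same 339 windows made up 74.5% of the 455 in Hba-a2. In the beta pair, 331 windows were shared, which was 62.6% of the 529 in Hbb-bs and 54.8% of the 604 in Hbb-bt. These windows are on the M21 model of Hbb-bs, 628 bases long, whereas the model in the deposited tables is 778 bases long, so the share there may differ. No window of Alas1 was found in Alas2. With expected counts, reads that fit both genes of a pair are divided between them by estimate. The reference is the C57BL/6 sequence, and the bases at which the Castaneus alleles differ were not analysed here.

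Total expected counts, the read numbers estimated per gene, ran from 15167444 to 27806010 per library with spike-ins included. All 11 listed Purkinje markers were detected in every library, with a summed level of 28586 ± 5711 TPM (SD, n = 12; TPM is a share of all transcripts, corrected for their length). Bergmann glia and astrocyte markers summed to 2227 ± 671 TPM, and 7 of 9 were detected in every library. Libraries 1, 4 and 13 stood apart with 18.4, 15.3 and 19.9 gene counts per spike-in count, against 5.86 to 9.83 in the other 9. Results that rest on them are also given without them where such values were available.

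Hba-a1, Hba-a2 and Hbb-bs were among the more abundant RNAs of these libraries, while the red cell forms of the partner genes were at or near 0. Hba-a1 had 285 ± 134 TPM, Hbb-bs 284 ± 140 TPM and Hba-a2 163 ± 127 TPM (SD, n = 12 for each), and each of the 3 was detected (1 expected count or more) in all 12 libraries. That was 3 of the 8 genes, where 8.46% of all annotated genes were detected in every library. Of genes within 2-fold of the mean TPM of Hba-a1, Hba-a2 and Hbb-bs, 95.1%, 87.2% and 95.1% were, in that order. Slc4a1 had 0 counts in all 12 libraries, and Alas2 had counts in library 1 alone. Alas1, Fech and Hbb-bt came and went between splits.

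**Figure D1:**
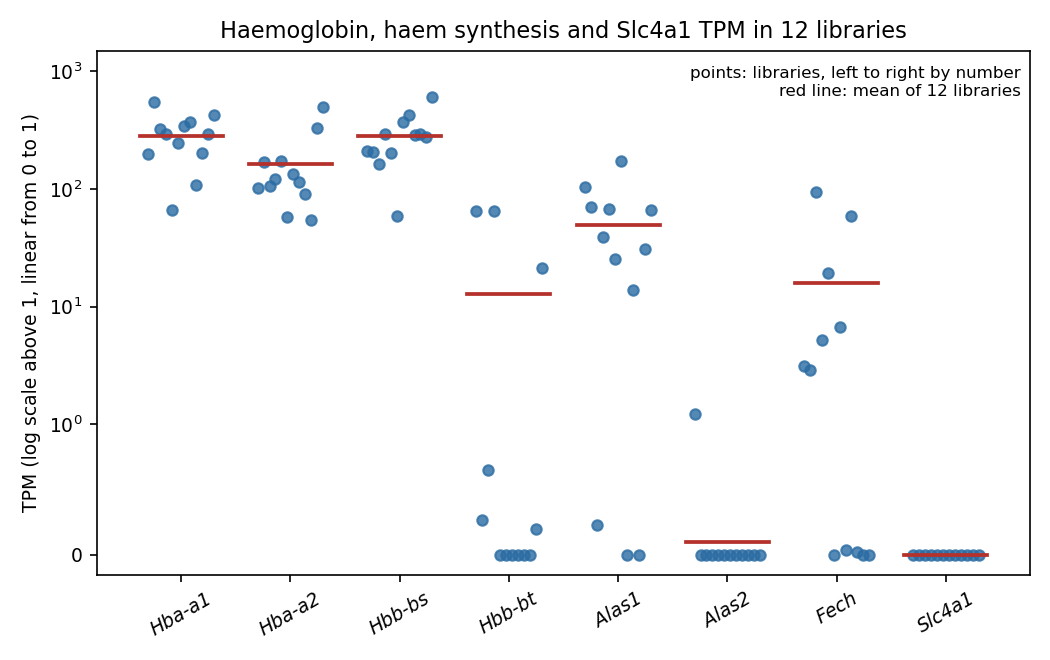
TPM of the 8 genes (vertical axis, log scale above 1 and linear from 0 to 1), with 1 point per library placed from left to right by library number and a red line at the mean of 12. Hba-a1, Hba-a2 and Hbb-bs were above 50 TPM in every library, whereas the other 5 genes were at 0 in at least 2 libraries.

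Hba-a1 (ENSMUSG00000069919.7, chromosome 11, 32283511 to 32284465, plus strand) encodes an alpha chain. It stood at 550.1 TPM in library 2 and 428 in library 13, at 369, 343 and 326 in libraries 9, 8 and 3, at 293 and 291 in libraries 12 and 4, at 245, 202 and 197 in libraries 6, 11 and 1, and at 108 and 66.7 in libraries 10 and 5. Its expected counts were 502 to 6607 per library. Library 2 stood above the rest, and libraries 10 and 5 stood below.

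Hba-a2 (ENSMUSG00000069917.7, chromosome 11, 32296489 to 32297298, plus strand), the other alpha gene of the same cluster, was highest in libraries 13 and 12, at 496 and 330.1 TPM. It stood at 174 and 169.6 in libraries 5 and 2, at 134, 122, 115, 107 and 103 in libraries 8, 4, 9, 3 and 1, at 90.2 in library 10, and at 58.2 and 54.2 in libraries 6 and 11. The upper end of its range was set by 2 libraries, and 10 lay between 54.2 and 174 TPM.

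Hba-a1 was above Hba-a2 in 9 of 12 libraries, by 0.91 ± 1.06 on the log2(TPM + 1) scale (mean difference and SD, n = 12, exact two-sided sign-flip permutation test, p = 0.0176, adjusted p = 0.0234 over 8 gene pairs). Hba-a2 was the higher gene in libraries 5, 12 and 13. The Hba-a1 level includes a retained-intron model, described below, whose reads could also come from Hba-a2. On the coding models alone, Hba-a2 was also the higher in library 10, at 90.2 TPM against 25.5 TPM. The pair was not tested on the coding models alone. The deposited intervals of the 2 TPM values, whose level is not given in the sources used here, overlapped in 0 of 12 libraries. The share of alpha globin TPM assigned to Hba-a1 ran from 27.7% in library 5 to 80.8% in library 6.

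**Figure D2:**
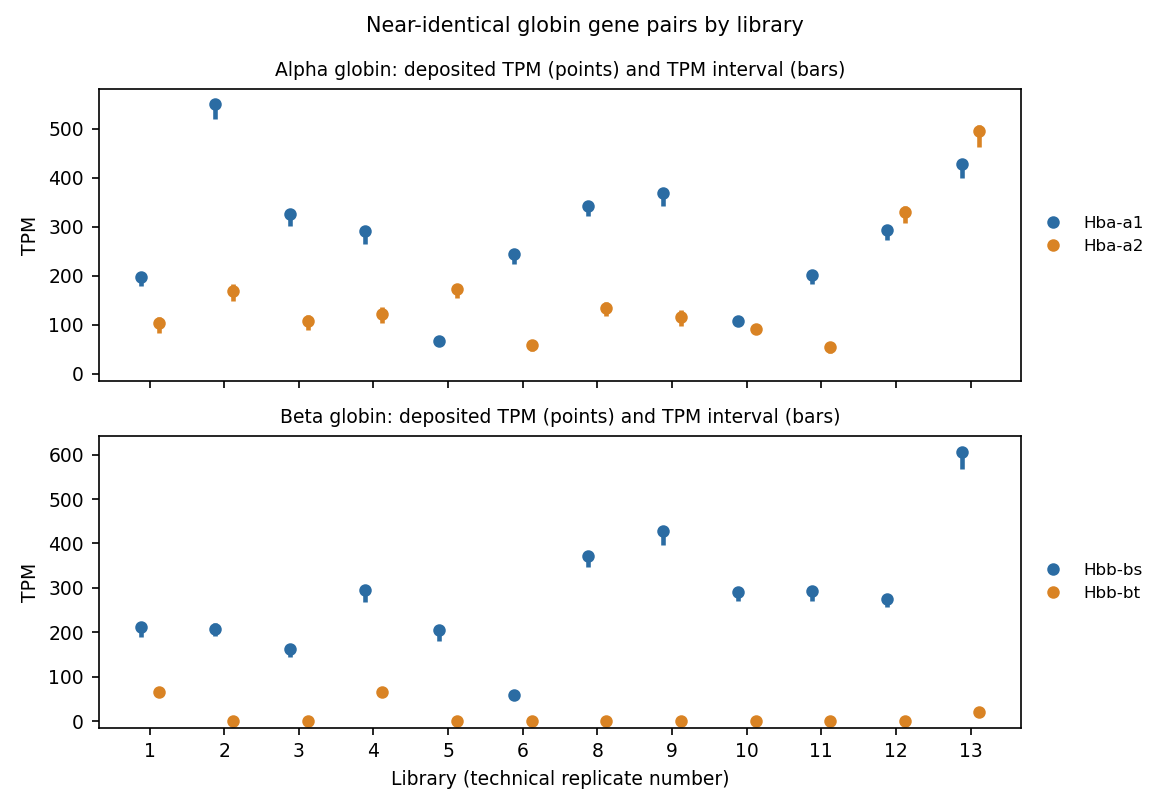
Deposited TPM (points) and deposited TPM interval (bars) of the alpha pair (upper panel) and the beta pair (lower panel) in each library. Hba-a2 lies above Hba-a1 in libraries 5, 12 and 13 only, and Hbb-bt rises visibly above 0 only in libraries 1, 4 and 13.

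Hbb-bs (ENSMUSG00000052305.5, chromosome 7, 103826534 to 103828096, minus strand) encodes a beta chain. It was at 606 TPM in library 13, at 427 and 372 in libraries 9 and 8, at 296, 293, 289.85 and 275 in libraries 4, 11, 10 and 12, at 211, 209 and 205 in libraries 1, 2 and 5, at 163 in library 3, and at 59.4 in library 6. Library 13 was also the second highest for Hba-a1 and the highest for Hba-a2. Hba-a1 and Hbb-bs did not differ in level beyond the spread: the mean difference was 0.00047 ± 1.05 on the log2(TPM + 1) scale (n = 12, exact permutation test, adjusted p = 1), with Hba-a1 higher in 4 libraries and Hbb-bs in 8.

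Hbb-bt (ENSMUSG00000073940.3, chromosome 7, 103812524 to 103813996, minus strand), the other adult beta gene, had 64.9, 65.4 and 21.2 TPM in libraries 1, 4 and 13. It had 0.65, 0.27 and 0.2 TPM in libraries 3, 2 and 12, from 6.4, 3.69 and 3.05 expected counts, and 0 in the remaining 6. The upper bound of its deposited interval was at most 2.06 TPM in the 9 libraries other than 1, 4 and 13, and the lower bound was at least 16.6 TPM in those 3. Hbb-bs was above it in 12 of 12 libraries, by 6.48 ± 2.42 on the log2(TPM + 1) scale (n = 12, exact permutation test, adjusted p = 0.0013). The p before adjustment, 0.000488, is the smallest that 12 paired values can give.

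The 3 libraries with 50 or more counts of Hbb-bt were the 3 with the highest ratio of gene to spike-in counts, an observation made after the values were seen. Of 1265 genes that reached 50 counts in exactly 3 libraries, 41 (3.24%) did so in the same 3, which was the most common of the 220 possible sets. No relation of Hbb-bs with that ratio passed the test: with log2 of the ratio its Pearson r was 0.26 and its Spearman rho 0.371 (n = 12, permutation p = 0.421 and 0.234, adjusted p = 0.79 and 0.625 over 8 relations). Leaving out libraries 6 and 13, where Hbb-bs lay farthest from its median, r was 0.026, and within the 9 low-ratio libraries it was -0.157. The part of the RNA amount per library in the Hbb-bt pattern was not tested.

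**Figure D3:**
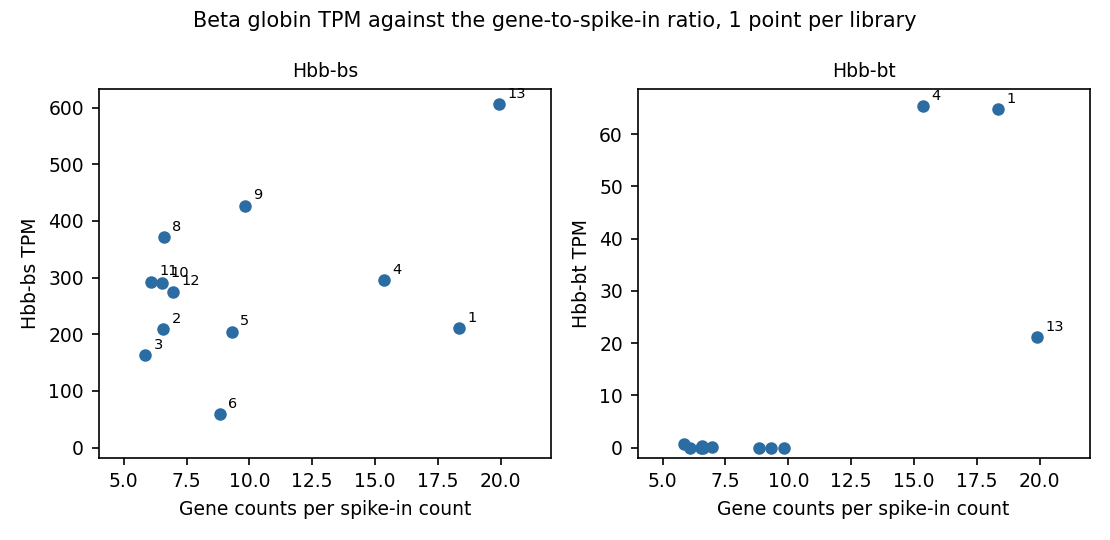
TPM of Hbb-bs (left) and Hbb-bt (right) against gene counts per spike-in count, with 1 point per library and library numbers beside the points (on the right, only for points above 5 TPM). The 3 libraries above 15 gene counts per spike-in count are the 3 with Hbb-bt above 20 TPM, while Hbb-bs spans 59.4 to 606 TPM across the plot.

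Summed over the 4 adult genes, globin RNA was 744 ± 322 TPM (SD, n = 12), with a low of 362 in library 6, a median of 685 and a high of 1551 in library 13. It took 0.0413% ± 0.0164 of the gene counts of a library. The alpha genes summed to 448 ± 218 TPM and the beta genes to 296 ± 144 TPM, and alpha exceeded beta in 10 of 12 libraries. Their ratio had a median of 1.23, from 0.683 in library 10 to 5.1 in library 6. None of the 6 embryonic and theta globin genes (such as Hba-x and Hbb-y, the embryonic alpha-like and beta-like chains) had a count, where 60.9% of all annotated genes had none in any library. Of the other globins, the cytoglobin gene Cygb had 14.5 ± 26.5 TPM, whereas neuroglobin (Ngb) and myoglobin (Mb) were at 0.

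At the level of transcripts, the coding model of Hba-a1 (ENSMUST00000093209.3, 699 bases) carried 247 ± 122 TPM and a retained-intron model (ENSMUST00000142555.1, 494 bases) 37.6 ± 43.8 TPM. The retained-intron model took from 1.55% to 76.3% of the gene and led in library 10 alone. Of its 395 windows of 100 bases, 284 were also in the coding model, and 0 were in neither that model nor Hba-a2. The windows that set it apart from the coding model were thus all shared with Hba-a2. Which of the 2 genes such RNA came from cannot be told from these windows. The corresponding Hba-a2 model, which also has 0 windows of its own, was at 0 in every library, so that 0 is an assignment by estimate. Hbb-bs was divided among 3 models that averaged 52.1%, 21.3% and 26.6% of its TPM, and the first, ENSMUST00000023934.6, led in all 12 libraries.

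The first haem enzyme was present in its general form and nearly missing in its red cell form. Alas1 (ENSMUSG00000032786.10, chromosome 9, 106233455 to 106248654, minus strand) had 49.2 ± 51 TPM (SD, n = 12). It stood at 172 TPM in library 8, at 104 in library 1, at 70.8, 67.4 and 66.8 in libraries 2, 5 and 13, at 39.3, 30.8 and 25.6 in libraries 4, 12 and 6, at 14 in library 10, at 0.23 in library 3 and at 0 in libraries 9 and 11. It thus reached 50 counts in 9 libraries and was close to or at 0 in 3. Alas2 (ENSMUSG00000025270.9, chromosome X, 150547375 to 150570638, plus strand) had 39 counts and 1.22 TPM in library 1 and 0 in the other 11. Alas1 was the higher of the pair in 10 libraries, with both at 0 in the remaining 2, by 4.22 ± 2.63 on the log2(TPM + 1) scale (n = 12, exact permutation test, adjusted p = 0.00391). With Alas2 at 0 in 11 libraries, this p only restates the number of libraries in which Alas1 was above 0.

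Fech (ENSMUSG00000024588.8, chromosome 18, 64452914 to 64490251, minus strand), the last enzyme, had 15.9 ± 29.9 TPM. It was at 94.1 and 59.3 TPM in libraries 3 and 10, at 19.2 in library 5, at 6.66, 5.16, 3.14 and 2.92 in libraries 8, 4, 1 and 2, at 0.04 and 0.02 in libraries 9 and 11 (2 counts and 1 count), and at 0 in libraries 6, 12 and 13. The 2 libraries highest in Fech had 0.23 and 14 TPM of Alas1. Alas1 was above Fech in 8 libraries and below it in 4, by 2.1 ± 3.62 on the log2(TPM + 1) scale (n = 12, exact permutation test, adjusted p = 0.0804), a difference within the spread between libraries. Without library 3 it was 2.87, with adjusted p = 0.0156 by the same exact permutation test. In the 9 libraries without 1, 4 and 13 it was 1.31 (exact permutation test, adjusted p = 0.375). Fech was above Alas2 in 9 libraries, with both at 0 in 3, by 2.11 ± 2.41 (n = 12, exact permutation test, adjusted p = 0.00625). With Alas2 at 0 outside library 1, this p too only restates the number of libraries in which Fech was above 0.

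Alas1 RNA was assigned to different models in different libraries. The tables hold 8 Alas1 transcripts, and 4 of them were the leading one in at least 1 of the 9 libraries with 1 TPM or more. ENSMUST00000074082.8 led in 4 of those 9. Fech has a single model in the tables.

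The 9 genes of haem synthesis were each detected in at least 1 library, and Urod, the uroporphyrinogen decarboxylase, was detected in all 12. Of all annotated genes, 60.9% were detected in no library and 8.46% in all 12, so 1 of 9 in all 12 was near that share. Urod had the highest mean, 68.3 ± 94.9 TPM, followed by Alas1 and by Uros (uroporphyrinogen synthase) with 22.6 ± 50.8 TPM. Alad, the second enzyme, had 17.1 ± 37.6 TPM, Ppox 13.7 ± 17.6 and Cpox 6.27 ± 6.21 (SD, n = 12 for each). Between 2 and 6 of the 9 genes reached 50 counts in a given library, and in no library did all 9. The summed level of the pathway was 201 ± 113 TPM, with a low of 72.5 and a high of 460.4.

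**Figure D4:**
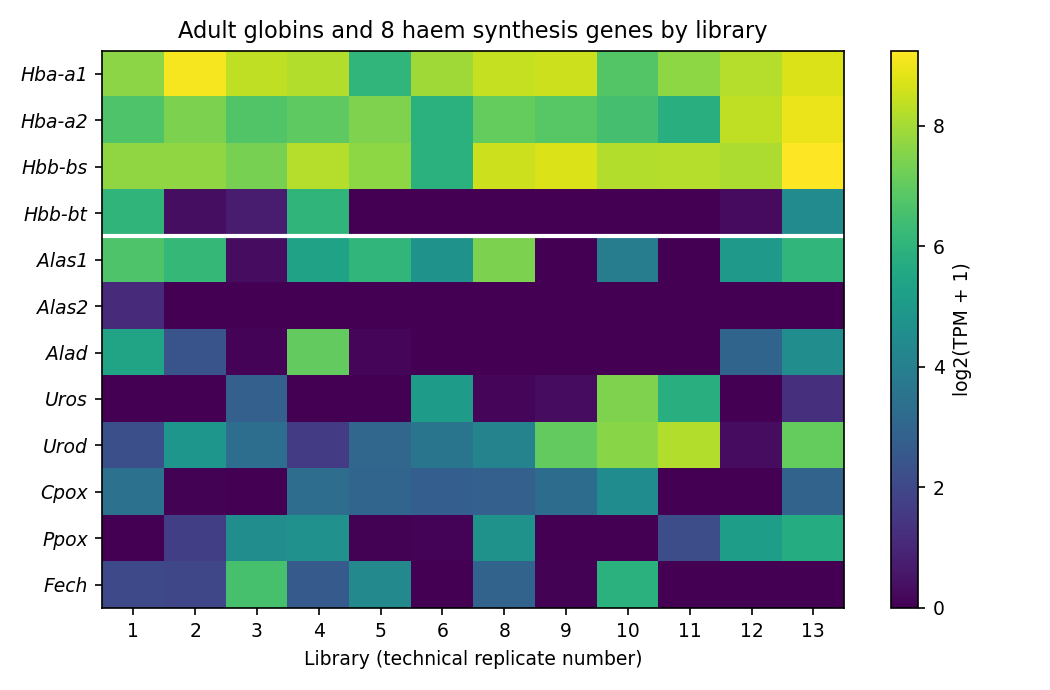
Log2(TPM + 1) (colour) of the 4 adult globin genes (above the white line) and 8 haem synthesis genes, in pathway order below the 2 synthase forms, in each library. Hba-a1, Hba-a2 and Hbb-bs are present in every column, and the haem synthesis genes form a different patchwork in each, with Alas2 above 0 in library 1 alone.

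Haem has to be moved and broken down as well as made, and these genes were also detected. Of the 12 genes of haem and iron transport, 12 were detected in some library and 1, Tmem14c, a mitochondrial porphyrin carrier, in all 12, at 134 ± 85.2 TPM. Over all annotated genes, 60.9% were detected in no library and 8.46% in all 12, so 1 of 12 in all 12 was near that share. Slc48a1, a haem transporter of lysosomal membranes, had 28.9 ± 45.3 TPM. The transferrin receptor gene Tfrc had 13.7 ± 20.9 TPM, and Slc25a37 (mitoferrin), which brings iron into mitochondria, had 8.45 ± 12.8 TPM. Slc25a38, the mitochondrial glycine carrier of red cell precursors, had 0.611 ± 2.11 TPM. Of the breakdown genes, the constitutive haem oxygenase gene Hmox2 had 99.3 ± 122 TPM and was detected in all 12 libraries. The biliverdin reductase genes Blvrb and Blvra had 57.8 ± 68.4 and 19.2 ± 48.3 TPM. The inducible oxygenase gene Hmox1 had 4.42 ± 14.8 TPM, with 50 counts or more in 1 library only.

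Slc4a1 (ENSMUSG00000006574.11, chromosome 11, 102348824 to 102366203, minus strand) had 0 counts in every library. A count of 0 allows up to 0.0137 CPM (counts scaled to the library total) over the 12 libraries together (3 counts of their total, counting error only). The upper bound of its deposited TPM interval was wider, from 1.47 TPM in library 10 to 2.82 TPM in library 5, while the lowest TPM of Hbb-bs in any library was 59.4. On the log2(TPM + 1) scale, where a gene at 0 makes the size depend on the pseudocount, Hbb-bs was above Slc4a1 in 12 of 12 libraries by 7.97 ± 0.83, and Hba-a1 above Alas2 in 12 of 12, by 7.87 ± 0.95 (n = 12, exact permutation test, adjusted p = 0.0013 for each). With Slc4a1 at 0 in every library and Alas2 at 0 outside library 1, these p-values only restate that the globin genes were always detected.

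Among 39 matched genes of the red cell lists (membrane and skeleton, cytosol and late maturation, and erythroid transcription factors), 19 had no count in any library and 20 were detected in at least 1. Of all annotated genes, 60.9% had none, so the count of genes at 0 does not set these lists apart. Those at 0 included Slc4a1, the glycophorin gene Gypc, the membrane skeleton gene Epb42, the carbonic anhydrase gene Car1, and the transcription factor genes Gata1, Klf1, Tal1 and Nfe2. Rhag, of the Rh complex, had 0.03 TPM in 1 library and 0 in the others.

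Other genes of these lists were detected, some at high levels, and which cells their RNA came from was not tested. Prdx2, a peroxidase, had 814 ± 356 TPM. Bnip3l, a mitophagy receptor, had 253 ± 197, the carbonic anhydrase gene Car2 had 241 ± 156, and the ubiquitin ligase gene Mkrn1 had 85.6 ± 92.2. On the membrane side, Epb41 had 39.9 ± 34.8 TPM, Ank1 10.7 ± 10.8, Tmod1 8.52 ± 14.1 and Dmtn 4.71 ± 9.33. Lmo2 was the leading transcription factor gene of the list with 34.7 ± 48.4 TPM, and Zfpm1 had 0.795 ± 2.44 TPM (SD, n = 12 for each). The median of the mean TPM was 0 in the membrane list and in the transcription factor list, as it was over all annotated genes, and 7.62 in the cytosol list, against 223 in the 4 adult globins.

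**Figure D5:**
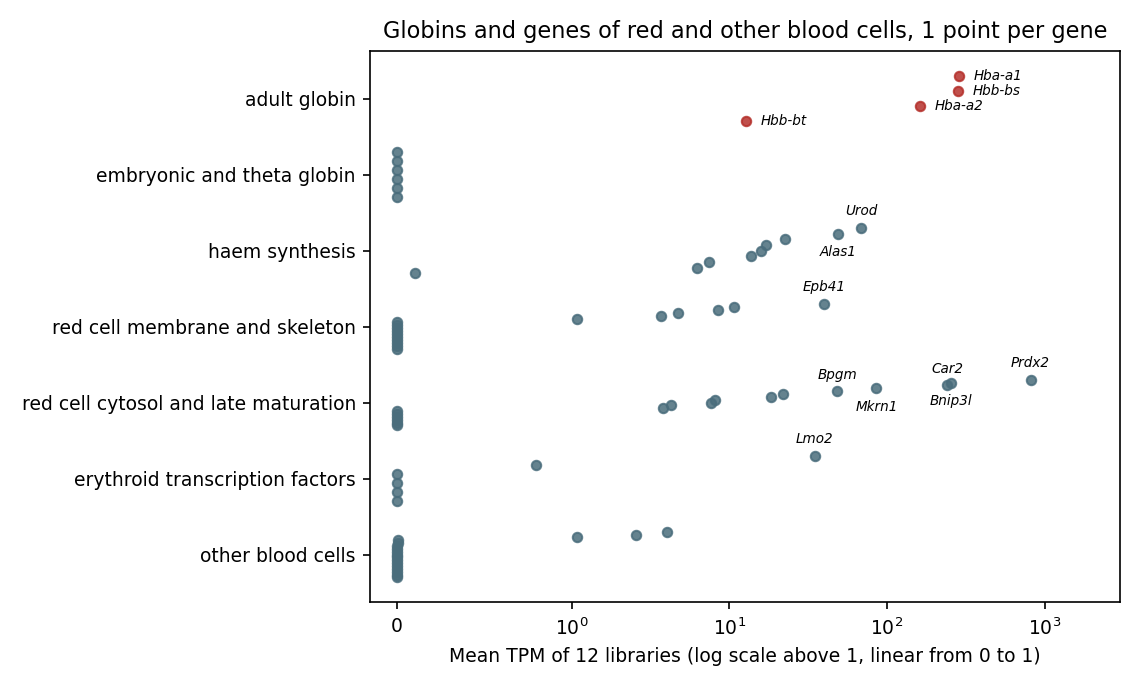
Mean TPM over 12 libraries (horizontal axis, log scale above 1 and linear from 0 to 1), with 1 point per gene and the lists on the vertical axis; genes with a mean of 30 TPM or more, and all adult globins, are named. The adult globins lie between 12.7 and 285 TPM, and 19 genes of the 3 red cell lists sit at 0.

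Other blood cells and vessels could also bring globin RNA into an excised sample, and their markers are given beside the globin level. Of 17 genes of platelets, granulocytes and lymphocytes, 12 were at 0 in every library, a share not far from the 60.9% of all annotated genes, and their sum was 0 to 36.9 TPM per library. Endothelial and mural markers summed to 0.06 to 45.1 TPM in 11 libraries and to 295 in library 13, where 7 of 12 reached 50 counts. Of those 12 genes, 5 were at 0 in all libraries, among them the endothelial genes Cldn5 and Kdr. The endothelial gene Pecam1 had counts in 11 libraries, at 0 to 3 TPM. It had 215 counts in total and reached 50 in library 13 alone, and no slope without that library is available for it. It was the one gene of the list in the fit on the globin level described below, where its slope was 2.47 log2 units per log2 unit of globin (edgeR p = 0.00485, adjusted p = 1). Flt1 reached 17.6 TPM and Ly6c1 99.5 TPM. Library 13 also had the highest globin sum, 1551 TPM. Libraries 2 and 9 had the next globin sums, 928 and 911 TPM. Their vessel marker sums, 2.19 and 45.1 TPM, were the fourth and the second highest, above the median of 0.33. Libraries 12 and 8 came next in globin, with 899 and 849 TPM. Their vessel marker sums, 0.15 and 0.14 TPM, were below that median. Library 10, with the third highest vessel marker sum, 17.8 TPM, had the third lowest globin sum, 488 TPM. Microglial markers summed to 0 to 462 TPM per library. The part of these cells in the globin level was not tested, and more cells of a type cannot be told apart from more RNA per cell in a homogenate. Without libraries 1, 4 and 13 the globin sum was 669.6 TPM.

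On the TPM scale, the always-present globin genes varied between splits about as much as other RNAs of their abundance. The coefficient of variation (SD over mean of TPM) was 0.471 for Hba-a1 and 0.492 for Hbb-bs, where genes within 2-fold of their mean TPM had medians of 0.573 and 0.575. For Hba-a2 it was 0.783 against 0.699, for Alas1 1.04 against 1.09, for Fech 1.88 against 1.56 and for Hbb-bt 1.98 against 1.65. In a test of each gene's spread against the abundance trend (edgeR quasi-dispersion, all 12 libraries), 2 of 13899 genes (0.0144%) passed an adjusted p of 0.05, and 0 of the 6 members tested did. At an unadjusted p under 0.05 the counts were 95 genes and 0 members. The lowest member p was that of Fech (p = 0.143, edgeR adjusted p = 0.773). The test looked for larger spread only. Its F, the spread over that of the trend, was 0.341 for Hba-a1, 0.233 for Hbb-bs and 0.168 for Hba-a2, below the trend. On simulated counts the test recovered 16% to 72% of genes given extra spread, so 0 calls do not show that no member varied more. Alas2 and Slc4a1 were below the filter of a mean count of 5.

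No relation between members from split to split passed the test, and the lowest adjusted permutation p of 8 relations was 0.625. Between Hba-a1 and Hbb-bs, Pearson r was 0.207 and Spearman rho 0.378 on log2(TPM + 1) (n = 12, permutation p = 0.494 and 0.228, adjusted p = 0.79 and 0.625). Leaving out libraries 5 and 10, where Hba-a1 lay farthest from its median, gave r = 0.343. Between Hba-a1 and Hba-a2, r was 0.282 and rho 0.462 (n = 12, permutation p = 0.375 and 0.134, adjusted p = 0.79 and 0.625), and r was 0.593 without the same 2 libraries. Between Hba-a1 and Fech, r was -0.42 and rho -0.317 (n = 12, permutation p = 0.169 and 0.312, adjusted p = 0.79 and 0.625), and r turned to 0.112 without libraries 5 and 10. Hba-a1 with Alas1 had r = -0.042 and rho = 0.091, and Alas1 with Fech r = -0.014 and rho = 0.109 (n = 12, permutation p = 0.908 and 0.778 for the first, 0.965 and 0.734 for the second, all adjusted p at least 0.869). With the same pair left out for Hba-a1 with Alas1, and libraries 9 and 11 for Alas1 with Fech, r became 0.185 and -0.549. Within the 9 low-ratio libraries the 5 values of r were 0.06, 0.119, -0.38, -0.101 and 0.064, in the order given.

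Hbb-bt fell into 2 clusters of libraries, near 0 and above 20 TPM, so no value over all 12 is given for its relation with Hbb-bs. In the 9 libraries near 0, r was -0.181 (n = 9, permutation p = 0.576, adjusted p = 0.874). Hba-a1 and the gene-to-spike-in ratio had r = 0.064 and rho = 0.056 (n = 12, permutation p = 0.853 and 0.869, adjusted p = 0.965 and 0.869), r = -0.095 without libraries 5 and 10, and r = -0.252 in the 9 low-ratio libraries.

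Across all genes, the change of each with the globin level of the library was fitted with edgeR's quasi-likelihood test on log2 summed globin CPM. None of 9487 genes (0%) passed an adjusted p of 0.05, and 270 had an unadjusted p under 0.05. Among the 5 red cell membrane, 8 cytosol and 1 transcription factor genes and the 7 haem synthesis genes that entered the fit, 0 passed before or after adjustment. The same model fitted with DESeq2 called 312 genes (3.29%), of which 189 rose and 123 fell with globin. DESeq2 called 0 genes of those 4 lists and 1 of 7 haem and iron transport genes. That gene, named after its value was seen, was Flvcr1, described as a haem exporter (DESeq2 adjusted p = 0.0308). On simulated counts the edgeR fit recovered few changes of moderate size, so 0 calls here do not show that no gene followed the globin level.

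The genes most like the globin sum over the 12 libraries, by Spearman correlation of TPM among 3186 genes detected in every library at a mean of 10 TPM or more, were Rbbp4 (rho = 0.818), Ppm1a, Tm9sf2 and Srsf3 (0.811 each) and Mfn1 (0.804). These are the top ranks of a long list over few libraries and carry no test. Of the red cell genes in that list, Bpgm, whose product makes the 2,3-bisphosphoglycerate that lowers the oxygen affinity of haemoglobin, had rho = 0.608, above 98% of the genes compared, with 48.5 ± 57.2 TPM. Car2 had rho = 0.224, Prdx2 -0.378 and Epb41 -0.469. The red cell genes detected in every library thus lay on both sides of 0.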

How the data were processed

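The authors deposited, for each of 12 libraries, gene and transcript tables made on mm10 with GENCODE M4, per the text files deposited beside them. Per the file headers, the deposited tables hold expected counts (estimated read counts, in which reads shared between genes are divided) and TPM, with TPM interval bounds and a posterior SD of the count. TPM is scaled over spike-ins and features without a gene name too, which took 7.7% to 23.5% of TPM per library. Which aligner, counting program and strand setting were used is not given in the sources used here. Symbols and coordinates came from GENCODE M21, and 42462 of 43346 gene identifiers matched. Sequences and shared windows came from GENCODE M21 transcripts; windows were 100 bases because deposited effective lengths were 99 shorter than lengths.

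Genes were compared within a library on log2(TPM + 1) with exact sign-flip permutation tests over 4096 patterns, and relations across libraries with 100000 resamples, each adjusted by Benjamini-Hochberg over 8. Expected counts were rounded for edgeR 4.0.16 (TMM) and DESeq2 1.42.0, which replaced its dispersion trend by a local fit. The slope fit used genes whose mean count reached 5 and that had 1 count or more in at least 6 libraries, the spread fit only the first filter. Both fits were tested on simulated data; a second simulated set, of abundant and little varying genes with steeper slopes, was added after recovery in the first was seen to be low. limma 3.58.1 served as an alternative, with R 4.3.3, Python 3.11.15, numpy 2.4.6, pandas 2.3.3 and scipy 1.17.1.

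The members and the 14 gene lists (137 genes, of which 136 matched) were chosen with earlier results of these data known. Named are all members, haem synthesis genes, up to 4 genes of highest mean TPM in a list, the 5 genes most like the globin sum, and genes at 0 or otherwise singled out after their values were seen; some listed genes are not reported here. Intervals and limits of a 0 count (3 counts) cover counting error only.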

Additional observations from a re-analysis of the deposited data

How the results depend on the processing

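Of 136 alternative values of the 8 gene pairs (pseudocounts of 0.1 and 10, CPM, TPM rescaled to annotated genes, each library left out, and the 9 low-ratio libraries, the last chosen after seeing the data), 131 kept their direction and side of the threshold. Hba-a1 against Hbb-bs, which did not pass, changed sign as libraries were left out, from -0.183 to 0.146. Alas1 against Fech ranged from 1.74 to 2.87 as libraries were left out and passed without library 3 only, and it was 1.31 in the 9 low-ratio libraries and 1.19 with a pseudocount of 10. Hba-a1 against Hba-a2 had adjusted p from 0.00586 to 0.0469 over all alternatives. None of the 8 correlations passed under any alternative, and 18 of 128 alternative values changed sign. As libraries were left out, r ranged from -0.15 to 0.15 for Hba-a1 with Alas1, from -0.193 to 0.355 for Alas1 with Fech, from -0.123 to 0.184 for Hba-a1 with the gene-to-spike-in ratio, and from -0.017 to 0.39 for Hbb-bs with that ratio. A pseudocount of 10 gave 0.026 for Hba-a1 with Alas1, CPM gave 0.083 for Alas1 with Fech, and rescaled TPM gave 0.0039 for Alas1 with Fech and -0.048 for Hba-a1 with the ratio. The 9 low-ratio libraries gave -0.181 for Hbb-bs with Hbb-bt, 0.064 for Alas1 with Fech, -0.252 for Hba-a1 with the ratio and -0.157 for Hbb-bs with it. The count of genes varying beyond the trend was 2, and 1 to 2 with a library left out (1 without library 1). The count of genes following the globin level was 0 with edgeR under TMM, RLE factors, no filter, globin per spike-in count and each library left out, 0 with limma (426 at unadjusted p under 0.05), and 312 with DESeq2; the cause was not tested. No paired analysis was possible because there is 1 group, so no replicate numbers pair samples across groups (genes were paired within libraries).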
